A study of Mus musculus with 7 samples.

Results

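The genes described here encode activity-induced transcription factors of neurons: 3 nuclear receptors (Nr4a1, Nr4a2 and Nr4a3), 4 zinc-finger proteins (Egr1, Egr2, Egr3 and Egr4) and Npas4, a basic helix-loop-helix PAS protein. Members were all regions enriched for 5-methylcytosine (5mC) that overlapped one of these 8 RefSeq gene bodies or lay within 10 kb of it. There were 20 such regions among 133337 in the series. The labelled cell type could not be checked against markers, because DNA enrichment gives no expression level.

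These genes are immediate early genes. Calcium entry through depolarised membranes activates kinases that act on factors already bound at their promoters, among them CREB and SRF, so transcription starts without new protein synthesis. Nr4a proteins are orphan receptors that can bind DNA as monomers, and some of them also with retinoid X receptors. Egr proteins bind GC-rich sites, and Npas4 pairs with Arnt proteins and is known for its part in forming inhibitory synapses. Methylation of CpG-rich promoters goes with silencing, whereas gene bodies of active genes are often methylated.

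One group of cultures received 55 mM KCl, which depolarises neurons, for 4 h, and the other was left untreated. Both were hippocampal neurons of C57BL/6J embryos taken at E18.5 and grown for 11 days in vitro, with AraC, an inhibitor of dividing cells, in the medium of both groups. An antibody pulled down DNA that carries 5mC for sequencing (MeDIP-seq), giving 3 KCl and 3 untreated libraries. The labels do not tell whether replicates came from separate cultures or animals, so the spread behind each p-value is that of libraries and may be technical. A pooled input library was not analysed here.

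Values are summit heights as deposited, 1 for each interval called in a library. Overlapping intervals of all libraries form an active region, and a region takes the highest summit of each library. The KCl libraries held 34834 to 93470 intervals and the untreated libraries 72947 to 87302, with 34834 in KCl replicate 3, the fewest of all. The read depth is unknown, and a region without a call is not shown to be unmethylated. MeDIP height follows both methylation and the number of CpG sites, which cannot be told apart here.

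Promoters with a listed start at these genes were rich in CpG sites and overlapped no enriched region, as did nearly all promoters of like CpG content. RefSeq start sites on GRCm38.p6 (chromosome coordinates as in mm10) were at hand for 6 of the 8 genes (all but Egr1 and Egr3). The 250 bases before each of their 10 listed starts overlapped 0 regions, against 4.49% of all 32851 such windows and 2.40% of the 8970 windows with at least 15 CpG sites, the lowest number among the 10. These 10 windows held 15 to 44 CpG sites with a median of 17.5, against a median of 6 over all windows. 5 of the 10 belong to Egr2 and overlap in part, so the count of 0 is near that background and does not set these genes apart.

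Promoters of 4 genes that had a gene-body region in at least 5 libraries are shown 5′ to 3′, from 250 bases before the start to the base before it, because they are the CpG-dense stretches at which no enrichment was called. Sequences are from RefSeq, and capitals mark CpG sites. For Egr2 the middle of its 5 windows is given.
Nr4a1 (chr15:101266596-101266845, plus strand): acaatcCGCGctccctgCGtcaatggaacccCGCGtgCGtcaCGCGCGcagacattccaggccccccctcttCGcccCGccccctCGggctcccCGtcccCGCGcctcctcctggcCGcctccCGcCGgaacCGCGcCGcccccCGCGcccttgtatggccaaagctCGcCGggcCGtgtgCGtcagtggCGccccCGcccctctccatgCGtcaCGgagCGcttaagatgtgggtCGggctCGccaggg
Nr4a2 (chr2:57124004-57124253, minus strand): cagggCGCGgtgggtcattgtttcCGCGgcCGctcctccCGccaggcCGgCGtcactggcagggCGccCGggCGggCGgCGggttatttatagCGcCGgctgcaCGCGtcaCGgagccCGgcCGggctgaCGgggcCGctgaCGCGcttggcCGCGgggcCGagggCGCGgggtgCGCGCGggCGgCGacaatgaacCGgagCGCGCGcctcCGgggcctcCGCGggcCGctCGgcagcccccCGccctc
Egr2 (chr10:67537619-67537868, plus strand): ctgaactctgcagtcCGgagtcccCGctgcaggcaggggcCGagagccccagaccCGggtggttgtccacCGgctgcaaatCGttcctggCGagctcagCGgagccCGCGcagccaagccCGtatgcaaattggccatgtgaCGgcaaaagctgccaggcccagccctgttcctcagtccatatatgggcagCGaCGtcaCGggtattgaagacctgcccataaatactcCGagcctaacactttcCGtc
Npas4 (chr19:4989972-4990221, minus strand): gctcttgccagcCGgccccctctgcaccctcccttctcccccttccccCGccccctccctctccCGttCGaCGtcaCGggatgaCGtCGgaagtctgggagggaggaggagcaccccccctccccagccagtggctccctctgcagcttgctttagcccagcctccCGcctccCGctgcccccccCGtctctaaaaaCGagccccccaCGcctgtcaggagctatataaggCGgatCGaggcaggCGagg

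Nr4a2 had 44 CpG sites in its window, more than 99.5% of all windows, and Nr4a1 had 34. Egr2 had 17 and Npas4 16, which still lay above 76.5% and 74.6% of windows. The core TGACG of the CRE element, to which CREB binds, occurred on either strand 4 times at Nr4a1 and 4 times at Nr4a2. It occurred 2 times in the Egr2 window shown (0 or 2 times in the other Egr2 windows) and 2 times at Npas4. Of all windows, 17.8% held at least 1. The core contains a CpG site itself, and its share was 31.6% among windows with at least 15 CpG sites. The CArG box, the SRF site, was found in the Egr2 window shown and in 1.47% of all windows (0.769% of the CpG-rich ones). The Egr motif GCGNGGGCG was in the windows of Nr4a1 and Nr4a2 and in 4.70% of all windows (14.9% of the CpG-rich ones). The monomer site of Nr4a receptors, AAAGGTCA, was in none of the 10 windows and in 1.34% of all (0.468% of the CpG-rich ones). The TGACG, Egr and receptor motifs were searched on both strands, the CArG box reads alike on both, and a match is a description of letters only.

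Measured from the nearest listed start, the closest enriched region lay 1283 bp away at Npas4, 1913 bp at Egr2, 2759 bp at Egr4, 3167 bp at Nr4a1, 3578 bp at Nr4a3 and 5489 bp at Nr4a2. None of the 6 genes thus had a region within 1000 bp of a start, against 15.1% of 27025 genes with a listed start. The median distance over all those genes was 5656 bp, so the 6 genes did not lie far from enriched DNA.

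**Figure D1:**
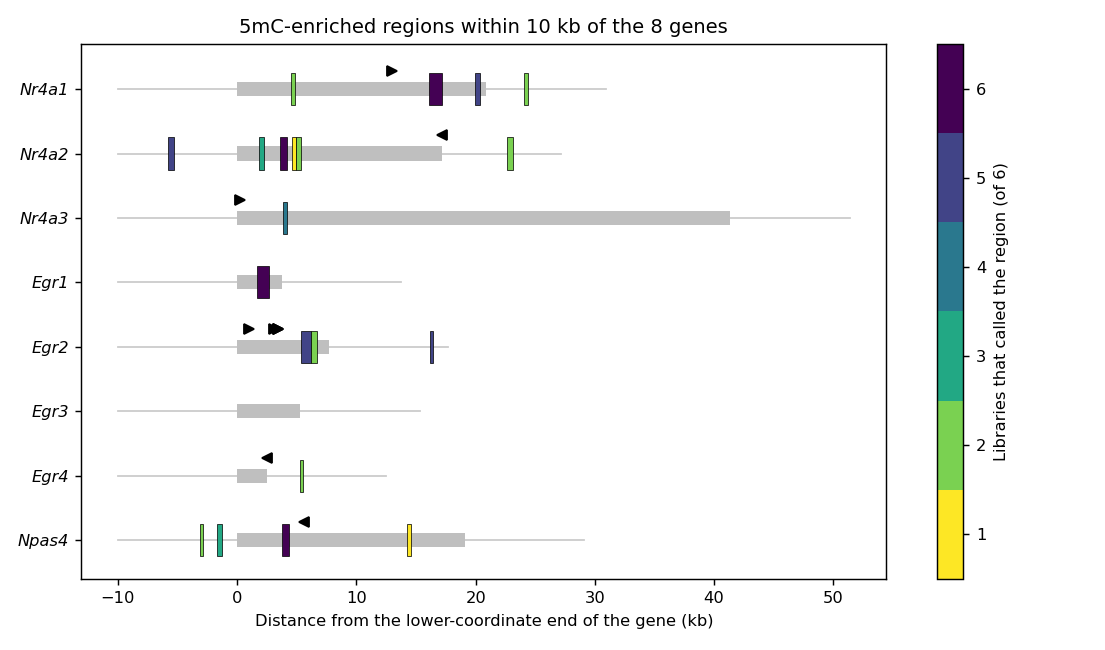
Positions of the 20 regions along the 8 genes, as distance in kb from the lower-coordinate end of each gene. Grey bars are RefSeq gene bodies, thin lines the 10 kb on either side, black triangles the listed starts pointing in the direction of transcription, and the colour of a region gives how many of the 6 libraries called it. The 4 darkest regions, called in all 6 libraries, lie inside Nr4a1, Nr4a2, Egr1 and Npas4, and Egr3 has none.

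In 4 genes a gene-body region was called in every library. Of the 8 genes, 7 had a region in their windows and 6 had one in the gene body. Gene-body regions called in all 6 libraries occurred in 4 of 8 genes (50%), against 33.9% of 21887 protein-coding genes and 27.5% of the 13087 whose length lay in the range of the 8. With the 10 kb on either side included, a region called in all 6 libraries occurred in 50% of the 8 genes, against 47.2% of protein-coding genes and 44.3% of those in the length range. The windows held 72.0 regions per Mb for the 8 genes and 80.4 per Mb for that length range. Of the 20 regions 13 (65%) lay in a gene body, against 71.5% over all protein-coding genes and 50.3% in the length range, where gene bodies made up 44.2% of the windows (42.4% for the 8 genes). These shares lay on both sides of the background and were not tested, and 8 genes are few. Whether the regions fall in exons or introns is not given by the annotation table used.

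Among the Egr genes, Egr1, which is induced with plasticity and learning, had 1 region, the highest of the 20 by mean over the libraries. The Npas4 region was higher in KCl replicate 1 and untreated replicate 3, and the Nr4a2 region in untreated replicate 1. In the other libraries Egr1 was highest. The Egr1 region spanned chromosome 18, 34862827 to 34863861 (mm10), 1620 bp inside the lower-coordinate end of a gene of 3750 bp. Heights were 40, 36 and 24 in KCl replicates 1 to 3, and 37, 46 and 33 in untreated replicates 1 to 3. KCl replicate 3 was lowest, and the other KCl heights lay among the untreated ones. Divided by each library's median height over regions called in all 6 libraries, the Egr1 heights were 1.38, 1.64 and 1.5 with KCl, and 1.42, 1.59 and 1.38 untreated, a narrow range that left no library apart.

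The Egr1 region was made of a main summit, whose position varied by 48 bp over the 6 libraries, and a lower one nearer to the lower-coordinate end. The lower summit was called on its own in KCl replicate 2, with a height of 18 at 336 bp from the main summit. It was also called in untreated replicate 1, with a height of 20 at 464 bp. In KCl replicate 1 and untreated replicate 2 a single long interval, of 920 and 767 bp, reached across both places, and KCl replicate 3 and untreated replicate 3 had only the main summit's interval. The merged length of 1035 bp exceeded that of 97.7% of regions called in all 6 libraries, and the longest single interval had 920 bp.

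Egr2, known for its role in myelination and hindbrain patterning, had 3 regions, none of them called in all libraries. The highest lay in the gene body at chromosome 10, 67539843 to 67540622. Its heights were 25 and 18 in KCl replicates 1 and 2, with no call in KCl replicate 3, and 23, 22 and 16 in untreated replicates 1 to 3. The groups overlapped in part: KCl replicate 1 was highest and untreated replicate 3 lowest. A weaker region followed in the gene body (67540679 to 67541127), with a height of 10 in KCl replicate 1 and 13 in untreated replicate 2. The third lay 8413 bp beyond the gene's higher-coordinate end (67550601 to 67550906), with heights of 19 and 12 in KCl replicates 1 and 3 and of 10, 14 and 16 in the untreated replicates.

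Egr4, the shortest of these genes at 2469 bp, had no gene-body region. A single weak region lay 2759 bp before its start (chromosome 6, 85516348 to 85516607). It had no call with KCl, and heights of 9 and 10 in untreated replicates 1 and 3. Egr3, which muscle spindles need and which active neurons induce, had no region in its body or within 10 kb. The nearest one was 18230 bp away (chromosome 14, 70058714 to 70059087) and was called in all 6 libraries at a mean height of 23.3. The Egr family thus ran from the region with the highest mean of the 20, at Egr1, to none within 10 kb, at Egr3.

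Nr4a1, which encodes the receptor Nur77, had 4 regions, 3 of them in a gene body that RefSeq extends well upstream of the listed start. The region called in all libraries lay at chromosome 15, 101270013 to 101271092, from 3167 to 4246 bp after that start. Heights were 18, 23 and 16 in KCl replicates 1 to 3, and 23, 24 and 23 in untreated replicates 1 to 3. The untreated heights lay within 1 unit of each other, and KCl replicate 2 matched the lowest of them, so the groups met at 23. Its mean of 21.2 was below that of most regions called in all 6 libraries (37.4% were lower). Its merged length of 1080 bp exceeded that of 98.1% of them, but no single interval was longer than 565 bp. The merge rests on a short overlap: the first interval of untreated replicate 3 ended at 101270600, and the second of untreated replicate 2 began at 101270592.

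The Nr4a1 region also held a pair of summits. The summit nearer the start had heights of 17, 23 and 16 with KCl, and 23, 24 and 23 untreated. The second, 384 to 544 bp further along, was called in KCl replicate 1 with a height of 18, and in untreated replicates 1 to 3 with heights of 14, 13 and 14. It was not called in KCl replicates 2 and 3, which held fewer intervals than any untreated library. Whether the missing calls go with the number of intervals was not tested. KCl replicate 1 was the library in which the second summit was the higher one.

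The other Nr4a1 regions were weaker. One in the gene body, upstream of the listed start (101258433 to 101258695), was called with KCl only, at heights of 10 and 11 in replicates 1 and 2. It was the single region of the 20 without an untreated call (5%, against 11.9% of all active regions), and at these heights it lay near the bottom of what was called. The region at 101273890 to 101274272 had heights of 10 and 12 in KCl replicates 1 and 3 and of 11, 23 and 12 in untreated replicates 1 to 3, so untreated replicate 2 stood out. A region 3157 bp beyond the gene (101277952 to 101278278) had a height of 12 in KCl replicate 3 and 14 in untreated replicate 1.

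Nr4a2 encodes Nurr1, a receptor that dopamine neurons need, and with 6 regions it had the most of the 8 genes. The region called in all libraries spanned chromosome 2, 57110415 to 57111003, 13000 to 13588 bp after the start of this minus-strand gene. Heights were 32, 26 and 12 in KCl replicates 1 to 3, and 42, 33 and 30 in untreated replicates 1 to 3. KCl replicates 2 and 3 were below all untreated heights and KCl replicate 1 was above the lowest. Summits agreed to within 48 bp across the libraries, so the same site was measured in each. Over the library median of shared regions the values were 1.10, 1.18 and 0.75 with KCl, and 1.62, 1.14 and 1.25 untreated, which leaves KCl replicate 3 lowest and untreated replicate 1 highest.

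Around it lay 3 weaker gene-body regions of Nr4a2, with heights of 11 to 13 in 1 to 3 libraries (57108694 to 57109101, 57111458 to 57111741 and 57111773 to 57112195). Past the lower-coordinate end, 5320 bp from the gene, a region at 57101014 to 57101510 had heights of 22 and 14 in KCl replicates 1 and 2 and of 23, 18 and 19 in the untreated replicates. On the promoter side, 5489 bp before the start (57129492 to 57129958), a region that overlaps the RefSeq gene BB557941 was called in untreated replicates 2 and 3 only, at heights of 22 and 21. Those heights exceed the 9 to 15 of the other regions called in untreated libraries alone. Untreated replicate 1 had no call there either, and the reason for the missing calls was not tested.

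Nr4a3, which encodes Nor1 and is the longest of these genes at 41370 bp, had 1 region (chromosome 4, 48048883 to 48049224), 3578 bp after the start. Its height was 12 in KCl replicate 1, with no call in the other KCl libraries, and 10, 11 and 16 in untreated replicates 1 to 3. The Nr4a family thus differed in number of regions against gene length: the longest gene had the fewest.

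Npas4 had 4 regions. The region called in all libraries lay in the gene body at chromosome 19, 4988079 to 4988688, and began 1283 bp after the start of this minus-strand gene, closer to a listed start than any other of the 20. Heights were 42, 26 and 14 in KCl replicates 1 to 3, and 30, 42 and 35 in untreated replicates 1 to 3. The KCl heights covered a 3-fold range that took in the whole untreated range at its upper end, while summits stayed within 32 bp of each other. The others were a gene-body region called in untreated replicate 1 only (height 12, 4998566 to 4998908, upstream of the listed start) and 2 regions past the lower-coordinate end. Of these the region at 4982646 to 4983049 had a height of 9 in KCl replicate 1 and heights of 10 and 12 in untreated replicates 1 and 2. The region at 4981213 to 4981435 had no KCl call, and heights of 12 and 15 in untreated replicates 1 and 3.

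**Figure D2:**
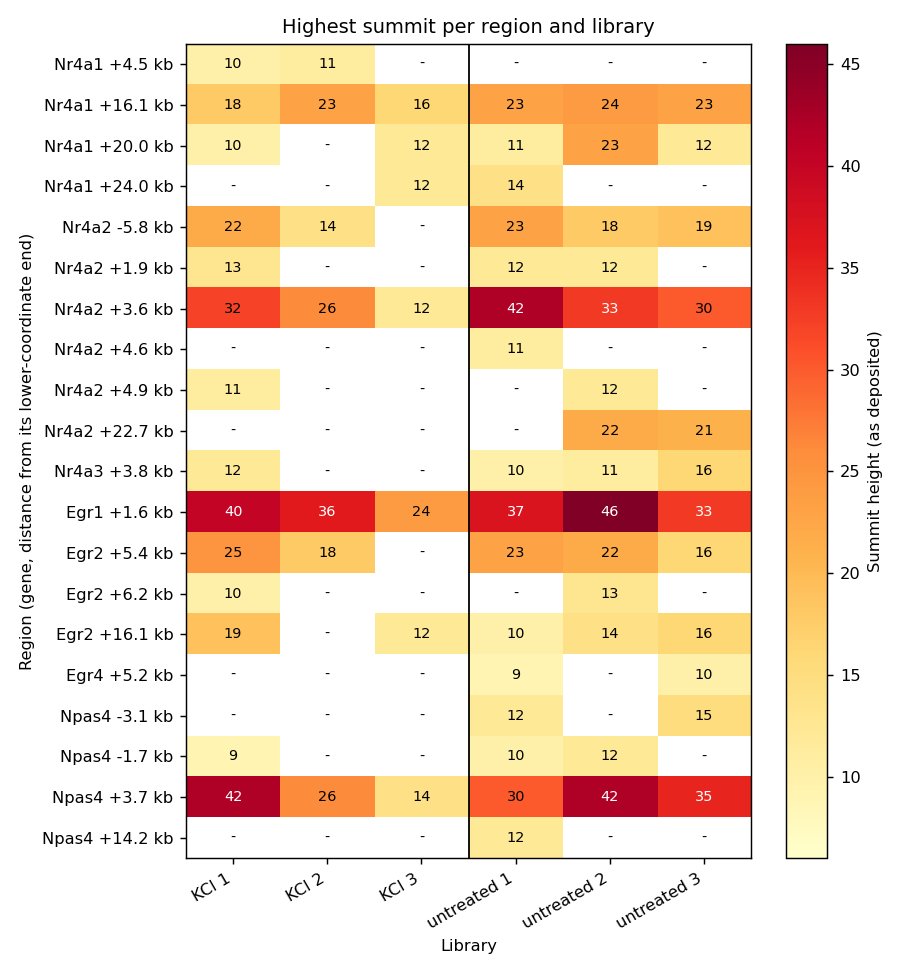
Summit height as deposited for each of the 20 regions (rows, named by gene and distance in kb from its lower-coordinate end) in each library (columns, KCl left of the line and untreated right of it). A dash means that the library called no interval there, and colour runs from the lowest deposited height of 6 to 46, the highest here. The rows of Egr1, Npas4, Nr4a2 and Nr4a1 that are filled throughout stand out. In the other rows many cells hold a dash, and the called cells hold 9 to 25.

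Ordered by mean height over all libraries, the 4 regions called throughout were Egr1 (36.0), Npas4 (31.5), Nr4a2 (29.2) and Nr4a1 (21.2). In untreated libraries these were 38.7 ± 6.66, 35.7 ± 6.03, 35 ± 6.24 and 23.3 ± 0.577 (SD, n = 3), and the first 3 overlapped. Every untreated height at Nr4a1 was below every untreated height at the other 3. With KCl the means were 33.3 ± 8.33, 27.3 ± 14.0, 23.3 ± 10.3 and 19.0 ± 3.61 (SD, n = 3). Every KCl height at Nr4a1 was below every KCl height at Egr1, and the other pairs of regions overlapped. By library, the regions shared by all 6 had a median height of 16 to 29. Egr1 was thus above the typical shared region in each library and Nr4a1 at or below it in all but KCl replicate 2.

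**Figure D3:**
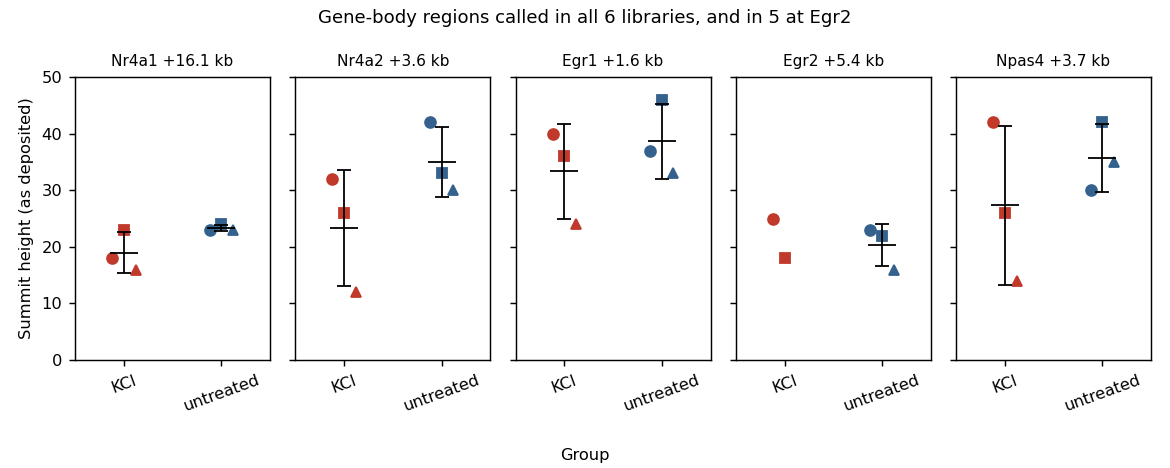
Heights by group for the 4 gene-body regions called in all libraries and for the Egr2 region called in 5. Circles, squares and triangles are replicates 1, 2 and 3, and bars give mean and SD of 3 libraries (none for KCl at Egr2, which has 2 values). KCl spans 12 to 42 over the regions, untreated 16 to 46, and the lowest KCl value is replicate 3 in each of the 4 regions it called.

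No change with KCl passed the test at these genes. The test was limma on log2(height + 1), centred on each library's median, over 20537 regions that all 6 libraries called with a mean height of at least 18.7. Libraries were not paired by number in this fit. The 4 regions called throughout passed the height filter, and the other 16 had no test. At an adjusted limma p under 0.05, KCl gave 0 higher and 0 lower of the 4, where 0.0% of all tested regions were called. At an unadjusted p under 0.05, limma gave 0 of the 4, and over all tested regions 405 higher and 342 lower. In none of the 4 regions did the 3 KCl heights lie all above or all below the untreated heights. Among regions called in all 6 libraries this was so in 0.124% and 4.66%. Between libraries of the same number, heights as deposited were lower with KCl in 3 of 3 pairs at Nr4a1 and Nr4a2, as in 5055 of the 27310 regions called in all 6 libraries, and in 2 of 3 pairs at Egr1 and Npas4.

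The change in height with KCl, relative to the library median, was 0.03 on the log2 scale at Egr1 (limma SE 0.17, 95% interval -0.32 to 0.37). At Npas4 it was -0.23 (SE 0.20, -0.63 to 0.17), and at Nr4a1 it was -0.04 (SE 0.23, -0.52 to 0.43). The Nr4a2 change was -0.40 (SE 0.21, -0.82 to 0.014), with an unadjusted p of 0.0578 in the unpaired limma fit. Adjusted over all tested regions, limma p was 1.00 for each of the 4. Every interval reaches to -0.32 or lower, so equal enrichment in both conditions is not shown. Of the 4 changes 1 was above 0 and 3 below, with a median of -0.14, against a median of 0.01 over all tested regions.

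Single libraries set much of these values. Without KCl replicate 3 the Nr4a2 change was -0.20 and the Npas4 change -0.04. Without untreated replicate 1 they were -0.26 and -0.34. Other omissions moved them further below 0: Nr4a2 reached -0.52 without untreated replicate 2, and Npas4 reached -0.39 without KCl replicate 1. The Nr4a1 change turned to 0.19 without KCl replicate 1 and to 0.02 without untreated replicate 3, and the Egr1 change to -0.0027 without untreated replicate 3. On heights as deposited all 4 changes were lower, from -0.23 at Egr1 to -0.66 at Nr4a2, where the median over all tested regions was itself -0.25. A fit that keeps regions called in at least 2 libraries of each group, and drops missing libraries, reached 4 more regions. It gave 0.13 at the Egr2 gene-body region (SE 0.27) and 0.46 beyond Egr2 (SE 0.28), each with 1 KCl library dropped. It gave -0.11 at Nr4a1 (SE 0.28) and -0.12 beyond Nr4a2 (SE 0.27), likewise with 2 KCl libraries, and adjusted p was 1.00 for each.

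**Figure D4:**
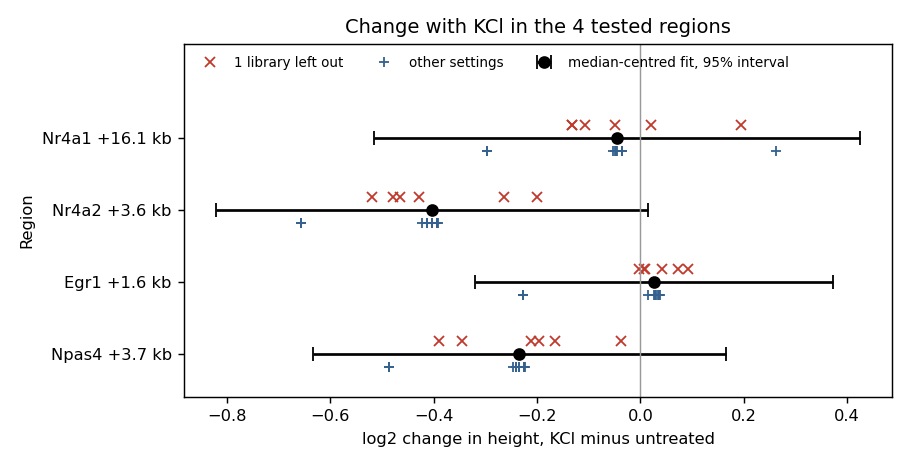
Change in height (log2 scale, KCl minus untreated) for the 4 tested regions. Black points and bars are the median-centred limma estimate with its 95% interval, red crosses the estimate with 1 library left out, and blue plus signs the other settings. All 4 intervals reach across 0, with Nr4a2 farthest below it at -0.40.

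On average KCl libraries called fewer of the 20 regions, a difference that was smaller once libraries had equal numbers of intervals. There were 14, 7 and 7 regions called in KCl replicates 1 to 3, and 16, 14 and 12 in untreated replicates 1 to 3. Means were 9.33 ± 4.04 with KCl and 14.0 ± 2.00 untreated (SD, n = 3), a difference of -4.67. Between libraries of the same number, KCl had fewer calls in 3 of 3 pairs. As shares of the 20, calls were 70%, 35% and 35% with KCl, where the same libraries called 69.4%, 45.0% and 25.7% of all active regions. The untreated shares were 80%, 70% and 60%, against 64.3%, 64.7% and 53.9% of all active regions. KCl shares thus lay on both sides of those of the whole library, and untreated shares somewhat above them. The whole libraries held 63084 ± 29376 intervals with KCl and 82467 ± 8245 untreated (SD, n = 3; exact permutation p = 0.4, two-sided, smallest possible 0.1). When every library kept its 34834 highest intervals, 11 of the 20 regions kept a call in any library, which by itself leaves less room for a difference. The cut fell at a height of 6 in KCl replicate 3, which kept all its intervals, and at 14 to 19 in the other libraries. The numbers were then 6, 5 and 7 with KCl, and 6, 7 and 9 untreated. The difference was -1.33, with fewer KCl calls in 2 of 3 pairs and equal calls in pair 1. These numbers depend on ties at the cut. In untreated replicate 3 the cut fell at a height of 16, which was the height of its kept Nr4a3 and Egr2 regions. In KCl replicate 1 the kept region beyond Egr2 was tied at 19. The region 5320 bp from Nr4a2 was tied but dropped in KCl replicate 2 (14) and untreated replicate 2 (18). How ties were broken thus enters the difference and the pair counts. Leaving out KCl replicate 1 made the difference -7.00 with all intervals.

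Of the 20 regions, 12 (60%) were called in more untreated than KCl libraries, against 48.4% of all active regions. The reverse held for 1 (5%), against 15.8%. Calls in untreated libraries alone were found for 5 (25%), against 24.0%. These shares were close to those of the series or rest on few regions, and were not tested. KCl replicate 3 called 7 of the 20 (35%) and 25.7% of all active regions. The 13 regions without a call there had mean heights of 9.5 to 21.5 with a median of 12, and the 7 with a call had 13 to 36 with a median of 21.2.

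**Figure D5:**
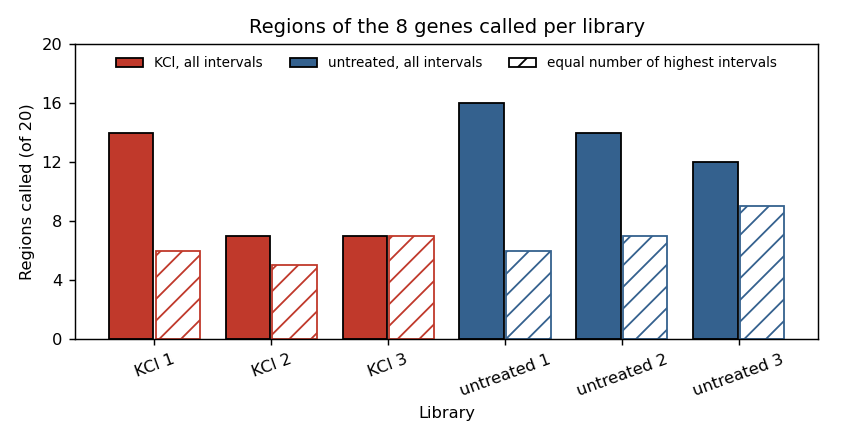
Number of the 20 regions called in each library, from all deposited intervals (filled bars) and from the 34834 highest intervals of each library (hatched bars). Filled bars are 14, 7 and 7 for KCl and 16, 14 and 12 for untreated, and hatched bars lie between 5 and 9 in all 6 libraries.

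At genes that act with these factors, no tested region passed either. The 7 partner genes comprise the Egr co-repressors Nab1 and Nab2, the retinoid X receptors that pair with some Nr4a proteins, and the Arnt partners of Npas4. They had 32 regions, 4 of them tested, with 0 higher and 0 lower in limma (0 also at an unadjusted p under 0.05), 2 above 0 and a median change of 0.01. Rxrg had the highest of them in its gene body (chromosome 1, 167632101 to 167632772). Its heights were 79, 60 and 39 with KCl, and 67, 73 and 60 untreated, a change of 0.04. The changes were 0.11 at Arnt2 and -0.06 at Rxrb. Nab1 had no region.

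The 16 upstream regulators, the factors and kinases through which calcium reaches these promoters, had 71 regions and 13 tested, of which 0 passed in either direction in limma (0 also unadjusted), with a median of -0.03. The lowest p came from a region 8032 bp from the CREB co-activator gene Crtc1, inside Comp (change -0.39, SE 0.19). Its heights were 40, 24 and 14 with KCl, and 40, 42 and 32 untreated. Next were gene-body regions of Crtc3, also a CREB co-activator (0.28), of Elk4, an SRF partner (-0.35), and of the kinase gene Camk4 (-0.27). Crem, which encodes a CREB relative, had no region.

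The 24 other immediate early genes had 61 regions and 17 tested, again with 0 passing in either direction in limma (0 also unadjusted) and a median of 0.00. Csrnp1, which encodes a nuclear protein, had the lowest p with -0.29, followed by a region 5812 bp from the stress factor gene Atf3, within Fam71a (-0.31), the AP-1 gene Fosl2 (0.31) and a region 3787 bp from Ier3 (-0.22). At Ier3 the heights were 29, 28 and 29 with KCl, and 41, 44 and 36 untreated, so that the groups did not overlap as deposited, as in 4.66% of regions called in all 6 libraries in this direction. Junb, of the AP-1 family, and the phosphatase gene Dusp1 had no region. Of the 24 genes, 10 (41.7%) had a gene-body region, against 63.1% of protein-coding genes, with a median gene length of 3875 bp against 17169 bp.

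The 16 genes grouped here as late activity genes, mainly effectors, had 41 regions and 8 tested. In limma 0 passed in either direction (0 also unadjusted), with a median of -0.07. Their time of induction was not tested, and some may be induced together with the factors. A region 6099 bp from Nptx2, a synaptic pentraxin gene, had the lowest p of the list and a change of -0.26, at heights of 55, 30 and 25 with KCl and 50, 51 and 48 untreated. A region 290 bp from the kinase gene Plk3, which overlaps Tctex1d4, followed with -0.23, then Bdnf with 0.23 and the receptor gene Gpr3 with 0.16. Scg2, which encodes a secretory granule protein, had no region. Limma SEs of the changes named in these 4 lists were 0.13 to 0.24, and adjusted p was 1.00 for each.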

How the data were processed

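A service company processed the samples, built the libraries and analysed the data, per the labels' protocols. Per the submitters' processing notes, BWA, SICER and mm10 were used; no source used here gives filters, caller settings or read totals. The deposited file holds 13 tracks, per the file headers: intervals and summits of 6 libraries, and the active regions. The summit heights deposited by the authors are whole numbers of at least 6, a signal whose scaling between libraries no source states.

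Each active region took the highest summit of each library. Regions called in all 6 libraries, and averaging 18.7 or more in height (the 25th percentile), were tested with limma 3.58.1 in R 4.3.3, on log2(height + 1) centred on library medians, with an intensity trend and Benjamini-Hochberg adjustment over all tested regions at 0.05. The script was tested on simulated heights with larger changes than those reported here, so that run does not show power for smaller ones. Windows used RefSeq genes of GRCm38.p6, all gene names were matched, and coordinates are 1-based. Same-numbered libraries deviated together weakly (correlations of 0.11, 0.11 and 0.11, others -0.09 to -0.01). The correlations of 0.11 just exceed the limit of 0.1 taken here for pairing, and what a number stands for is not labelled. The main fit left the libraries unpaired, and a replicate block was an alternative. All regions of the 8 genes are named, and in each further list up to 4 genes with the lowest p. Members and lists were chosen with earlier results of these data known.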

Additional observations from a re-analysis of the deposited data

How the results depend on the processing

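Under every alternative run, 0 of the regions of the 8 genes passed limma's threshold in either direction. The Nr4a2 and Npas4 changes stayed below 0 in all 16 alternatives each, from -0.66 to -0.20 and from -0.49 to -0.04. The Nr4a1 change turned to 0.26 with the mean of the summits in place of the highest, where the second summit of 4 libraries enters, and ranged from -0.13 to 0.19 without single libraries. It has no value with a height filter at the median. The Egr1 change was -0.23 on heights as deposited, with and without a replicate block, because the library-wide shift of -0.25 is then included, and ranged from -0.0027 to 0.092 without single libraries. The replicate block with median centring left each change as it was and changed no call. At Nr4a2 the SE was 0.196 with the block, against 0.206 without it, and adjusted limma p was 0.980. Unadjusted p-values of the 4 regions under the block are not given here. Pseudocounts of 0.5 and 0, quantile normalisation and other filters moved the 4 changes by less than 1 SE. The difference in regions called per library was -1.33 with equal numbers of intervals, a value that depends on ties at the cut. It was -1.67 in gene bodies with or without 1 kb on either side, -5.00 with 25 kb, and -7.00 to -3.50 without single libraries. Unknown read depth limits all statements on uncalled regions.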
